A study of Gallus gallus with 12 samples.

Results

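The genes described here drive the cell cycle and the copying of DNA. They are a set of 48 symbols, namely 21 genes of the start of S phase and of DNA replication, the 3 D-type cyclins and 24 genes of mitosis. Every probe set that the array's annotation pairs with 1 of these symbols was taken, which gave 76 of the 37693 chicken probe sets, for 41 of the 48 genes. A cell enters the cycle when D-type cyclins and then E-type cyclins release the transcription factor E2F1, which switches on the genes of DNA synthesis. Replication starts where CDT1 and the MCM helicase are loaded onto DNA and CDC45 joins them, with geminin (GMNN) as the inhibitor of CDT1. Mitosis follows under CDK1 and its cyclins. Condensins pack the chromosomes, kinetochore proteins hold them to the spindle, and the BUB and MAD proteins delay their separation until all are attached. In the early facial prominences, growth depends on the proliferation of neural crest derived mesenchyme beneath the surface epithelium.

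RNA came from the maxillary prominences, the paired swellings that form the side of the upper jaw, of chicken embryos. Each embryo received 2 beads in the side of the head at Hamburger Hamilton stage 15 (25 somites), and tissue was taken 16 h later at stage 18. Noggin, a secreted protein that binds and blocks bone morphogenetic proteins (BMPs), was loaded on 200 µm beads at 1 mg/ml, and all-trans retinoic acid (RA) on 100 µm beads at 1 mg/ml. The 4 groups of 3 arrays were Noggin+RA, Noggin+DMSO, Tris+RA and Tris+DMSO, where Tris was the buffer of Noggin and DMSO (dimethylsulfoxide) the solvent of RA. Every embryo carried beads, so no group shows tissue without an implant, and each array held RNA of mesenchyme together with epithelium pooled from 12 to 15 embryos. The pools are the replicates, so p-values measure the spread between pools. In such bulk RNA, fewer cells of a type and less RNA per cell cannot be told apart.

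The arrays differed with Noggin in ways that matter for small changes. The median intensity of a chicken probe set was 42.2 to 48.9 on the 6 arrays with Noggin and 35.1 to 41.1 on the 6 arrays with Tris, although the trimmed mean was 150.03 on each. The ratio of the 5' to the 3' control probe set of GAPDH, a measure of how complete the labelled RNA was, ran from 0.619 to 0.736 with Noggin and from 0.784 to 0.849 with Tris, so the 2 sets of arrays did not overlap. Background, taken as the 95th percentile of the virus probe sets of an array, differed too. It ran from 39.6 to 49.0 with Noggin and from 31.1 to 38.3 with Tris, again without overlap. Whether this bears on how far bright probe sets lie from the median of all probe sets was not tested. Of the listed markers of the labelled tissue, 12 of 15 mesenchyme and 10 of 13 surface epithelium genes on the array were above background on all 12 arrays and ALX4 (mesenchyme) on none.

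Of the 76 member probe sets, 67 were bright enough to be tested, 26 for S phase genes, 6 for D-type cyclins and 35 for mitotic genes, and every one of the 41 genes kept at least 1. The filter left out 9 dim probe sets, each of a gene that also had a brighter one. MCM4, MCM7, CDC6, CDK2, CCNB2, AURKA and NCAPH had no probe set under those symbols and were not analysed here. The brightest probe set of 40 of the 41 genes lay above background on all 12 arrays, MCM10 being the exception. Some were not far above it, the brightest ECT2 probe set reading 47.4 to 96.3 over the arrays. For each gene the brightest probe set stands in the class counts, giving 17 S phase genes, 3 D-type cyclins and 21 mitotic genes. Differences were tested with limma on log2(value + 16) across all 21354 probe sets kept, and a probe set was called at a Benjamini-Hochberg adjusted p below 0.05. Folds are ratios of value + 16.

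Of the 5 pairwise comparisons, Noggin alone gave the widest shift of these genes, and it was small. With Noggin+DMSO against Tris+DMSO, 15 of 17 S phase genes and 20 of 21 mitotic genes had lower estimates. So did 41.7% of all probe sets tested and 44.8% of all genes by their brightest probe set. The median log2 difference was -0.23 for S phase genes (1.17-fold lower) and -0.19 for mitotic genes (1.14-fold lower). It was 0.063 for all probe sets tested and 0.036 for all genes by their brightest probe set. In 26 member probe sets all 3 Noggin+DMSO arrays lay below all 3 Tris+DMSO arrays and in 3 they lay above, together 43.3% of the 67; over all probe sets the groups failed to overlap in 29.8%, with 12.4% lower and 17.4% higher. A single member probe set, that of CDC45, passed the adjusted threshold (1.49%), below the 4.95% called among all probe sets tested (1.99% lower and 2.97% higher). At an unadjusted p below 0.05 there were 19 lower and 3 higher, where 9.73% of all were lower and 15% higher. The 26 lower probe sets without overlap include 1 of ECT2 and 1 of CCNE1 that passed the brightness filter on 0 Noggin+DMSO arrays. For these the filter favoured a lower direction.

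**Figure D1:**
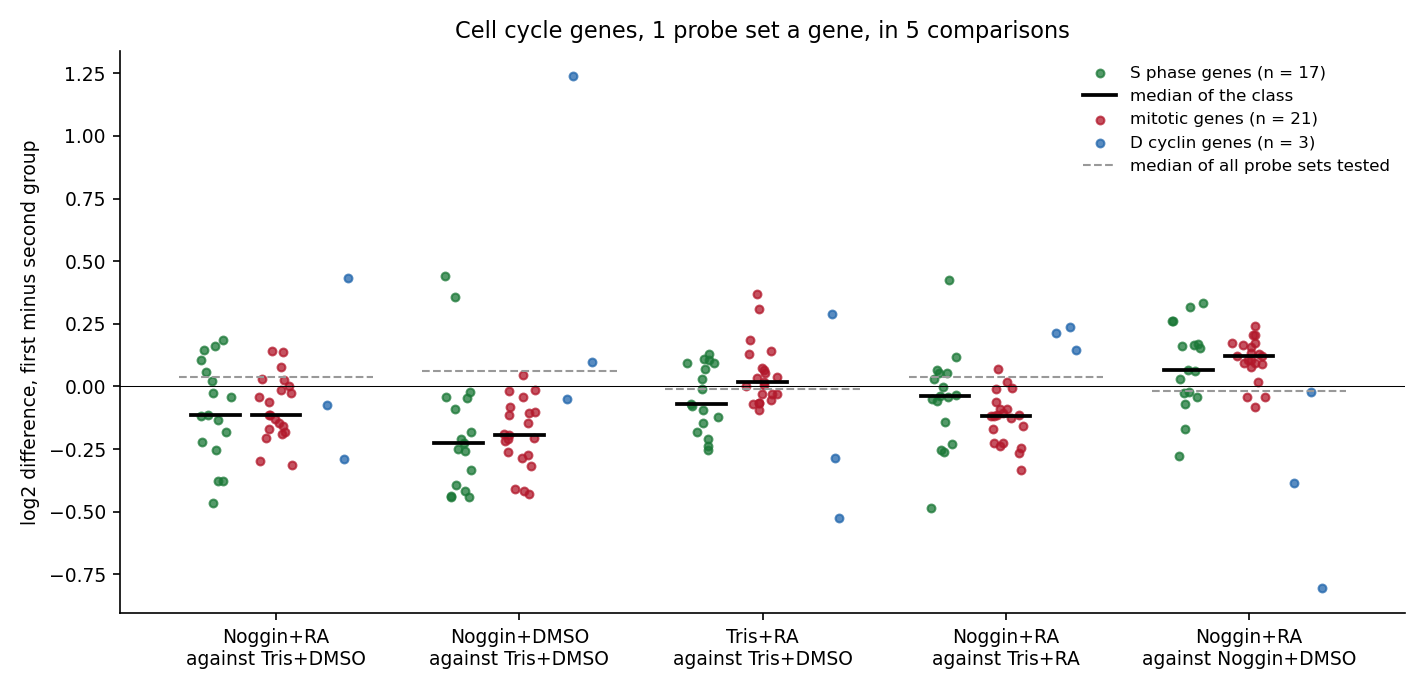
Log2 difference of each gene (1 point a gene, brightest probe set, vertical axis) in 5 comparisons (horizontal axis), with S phase genes in green, mitotic genes in red and D-type cyclins in blue; black bars are class medians and dashed grey lines the median of all 21354 probe sets tested. In Noggin+DMSO against Tris+DMSO the class medians sit at -0.23 and -0.19 below a grey line at 0.063, and the point at 1.24 is CCND3.

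The class averages on single arrays show how far pools of 1 group differed. Averaged over the 17 S phase genes, the log2 level relative to the Tris+DMSO mean was -0.27, -0.10 and -0.16 on the Noggin+DMSO arrays, against 0.086, -0.074 and -0.012 on the Tris+DMSO arrays. All 3 Noggin+DMSO arrays were lower than the lowest control array, by a margin smaller than the spread among the control arrays. Over the 21 mitotic genes the Noggin+DMSO arrays stood at -0.24, -0.16 and -0.16, and the Tris+DMSO arrays at 0.028, -0.00050 and -0.028. Here the gap between the groups was wider than the range within either. The Noggin+RA arrays split: replicates 1 and 2 stood at -0.0041 and -0.019 for mitotic genes, inside the control range, while replicate 3 stood at -0.23.

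**Figure D2:**
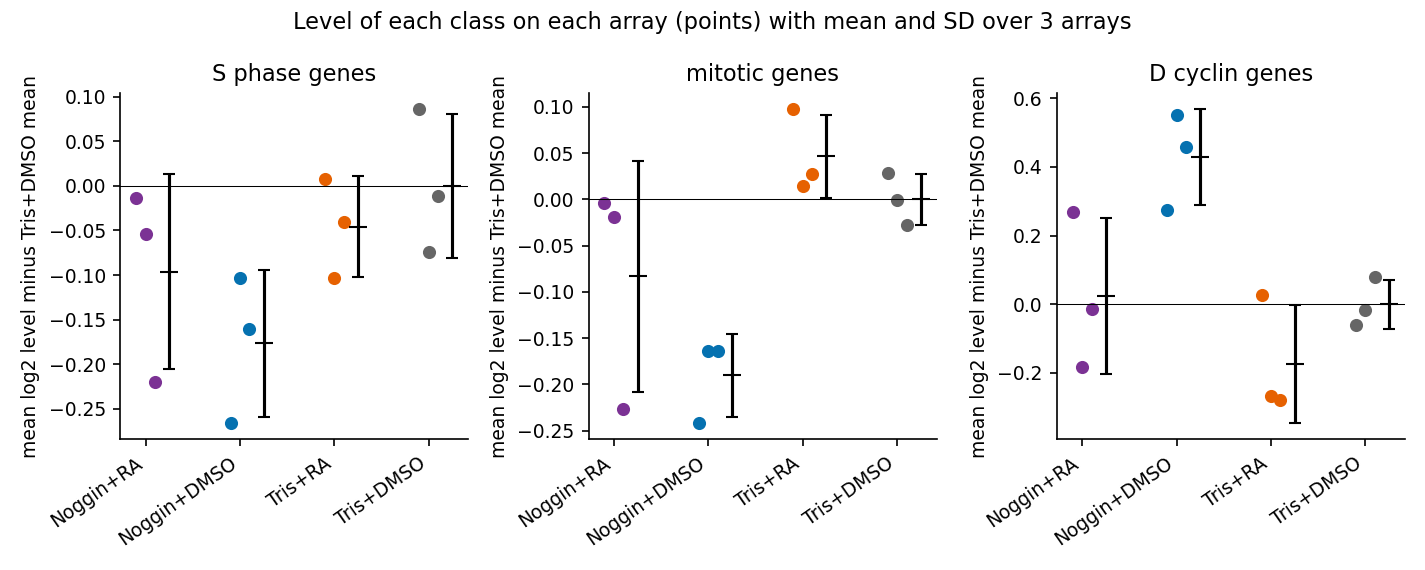
Mean log2 level of the S phase genes (n = 17), mitotic genes (n = 21) and D-type cyclins (n = 3) on each array (points), relative to the Tris+DMSO mean, for the 4 bead groups; bars give the mean and SD over 3 arrays, and the vertical scales differ between panels. The Noggin+DMSO arrays lie lowest as a group for S phase and mitotic genes and highest for D-type cyclins. Of the D-type cyclins, CCND3 had 1.24 against Tris+DMSO, CCND1 0.10 and CCND2 -0.051. For S phase and mitotic genes, Noggin+RA replicate 3 stands apart from the other Noggin+RA arrays at -0.22 and -0.23.

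CDC45, the factor that turns the loaded MCM ring into a working helicase, gave the clearest difference. Its probe set read 1933, 1822 and 1777 on Noggin+RA arrays, 1529, 1558 and 1518 on Noggin+DMSO arrays, 2235, 2209 and 2197 on Tris+RA arrays and 2066, 2045 and 1958 on Tris+DMSO arrays. Every array with Noggin was lower than every array with Tris, and the 4 groups did not overlap one another. Against Tris+DMSO, CDC45 fell with Noggin+DMSO by 0.39 on the log2 scale (SE 0.087, 1.31-fold lower, limma adjusted p = 0.0277). The call did not survive leaving out any 1 of the Noggin+DMSO arrays, or Tris+DMSO replicate 1 or 2 (adjusted p up to 0.0960), while the log2 difference stayed between -0.42 and -0.38. Averaged over both states of RA, the Noggin effect on CDC45 was -0.33 (SE 0.062, adjusted p = 0.0104) and was called whichever array was left out.

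The average Noggin effect, which sets the 6 arrays with Noggin against the 6 with Tris, called 9 member probe sets, 8 lower and 1 higher. That is 13.4% of the 67, against 11.2% of all probe sets tested (4.47% lower and 6.77% higher). The 3 S phase genes with lower calls were CDC45, RRM1 and MCM6, and the 5 mitotic ones were SMC4, NCAPG, BUB1B, NUF2 and TPX2. Leaving out Noggin+RA replicate 3 cut the 9 calls to 3, those of CDC45, MCM6 and RRM1. Over all probe sets the same omission cut the share called from 11.2% to 5.05%. CDC45, MCM6 and RRM1 had a call under each of the 12 single omissions, MCM6 by the probe set that rose.

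RRM1, the large subunit of the ribonucleotide reductase that makes the building blocks of DNA, read 894, 892 and 739.9 with Noggin+RA, 759, 936 and 724 with Noggin+DMSO, 1176, 1165 and 1204 with Tris+RA and 1203, 909 and 1196 with Tris+DMSO. The Noggin+RA arrays were below all Tris arrays, and the single overlap was the second Tris+DMSO array, which lay below the second Noggin+DMSO array. RRM1 fell by 0.46 on the log2 scale in the average Noggin effect (SE 0.10, 1.38-fold lower, adjusted p = 0.0179). A dimmer RRM1 probe set had a log2 difference of -0.12 in the same direction and was not called (adjusted p = 0.385). RRM2, the small subunit of the same enzyme, had -0.090 (adjusted p = 0.447), and TYMS, which makes thymidylate, had -0.12 (adjusted p = 0.278).

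MCM6, a subunit of the replicative helicase, gave opposite answers on different probe sets. Its brightest probe set read 983, 1118 and 878 with Noggin+RA, 1035, 1038 and 949.6 with Noggin+DMSO, 1384, 1035 and 1154 with Tris+RA and 1368, 1427 and 1314 with Tris+DMSO. It fell by 0.35 in the average Noggin effect (SE 0.090, 1.27-fold lower, adjusted p = 0.0327). The second probe set read 638, 591 and 618 with Noggin+RA, 584, 603 and 733 with Noggin+DMSO, 369, 420.2 and 462 with Tris+RA and 385, 438 and 552 with Tris+DMSO, with every Noggin array above every Tris array. It rose by 0.51 (SE 0.10, 1.43-fold, adjusted p = 0.0136), and the third MCM6 probe set gave -0.042 (adjusted p = 0.820). No direction for MCM6 as a gene can be read from these probe sets.

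The other helicase subunits were lower on average with Noggin+DMSO without passing the threshold. MCM5 differed by -0.42 (adjusted p = 0.146), MCM2 by -0.25 (0.249) and MCM3 by -0.041 (0.855). MCM5 read 739, 827 and 752 with Noggin+DMSO and 1268, 803 and 1089 with Tris+DMSO, so the second control array fell inside the Noggin+DMSO range. CDT1, the loader of the helicase, and GMNN, its inhibitor, had differences of -0.047 and -0.021. MCM10, a further replication factor, had 0.36 with a wide 95% interval of -0.52 to 1.23, its signal being near background.

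PCNA, the clamp that holds the DNA polymerase, read 2064, 2279 and 1774 with Noggin+RA, 2087, 2169 and 2014 with Noggin+DMSO, 2609, 2327 and 2228 with Tris+RA and 2842, 2778 and 2324 with Tris+DMSO. All 3 arrays of each Noggin group were below all 3 Tris+DMSO arrays. The difference was -0.38 for Noggin+RA (adjusted p = 0.192) and -0.33 for Noggin+DMSO (adjusted p = 0.128), both against Tris+DMSO. The average Noggin effect on PCNA, -0.28, just missed the threshold (adjusted p = 0.0580).

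Genes that act on the passage into S phase did not share 1 direction. CDC25A, a phosphatase that activates cyclin-dependent kinases, read 84.2, 79.9 and 83.0 with Noggin+DMSO and 119.8, 104 and 131 with Tris+DMSO, with no overlap, and differed by -0.44 (SE 0.15, adjusted p = 0.107), the lowest estimate among the S phase genes. CCNE2, an E-type cyclin, read 181, 213 and 194 with Noggin+DMSO and 226, 247 and 240.3 with Tris+DMSO, again apart (-0.26, adjusted p = 0.162). CCNE1, the other E-type cyclin gene, had -0.23 (adjusted p = 0.435), and CHEK1, the checkpoint kinase of stalled replication, -0.18 (adjusted p = 0.341). E2F1 went the other way. It read 608, 469 and 409 with Noggin+RA, 505, 595 and 706 with Noggin+DMSO, 538, 408 and 473 with Tris+RA and 496, 412 and 405 with Tris+DMSO, so that all 3 Noggin+DMSO arrays were above the control arrays. Its difference of 0.44 was not called (SE 0.17, adjusted p = 0.144).

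NCAPG and SMC4, both of condensin, had with RACGAP1 the 3 lowest mitotic estimates under Noggin. SMC4, a core condensin ATPase, read 1146, 1215 and 1109 with Noggin+RA, 983, 1005 and 1015 with Noggin+DMSO, 1333, 1363 and 1365 with Tris+RA and 1552, 1266 and 1214 with Tris+DMSO. Each Noggin+DMSO array was below every array of the other groups, and the Noggin+RA arrays touched the control range at 1 array. SMC4 fell by 0.32 in the average Noggin effect (SE 0.076, 1.25-fold lower, adjusted p = 0.0250), and with Noggin+DMSO against Tris+DMSO it differed by -0.41 at an adjusted p of 0.0502. NCAPG, a regulatory condensin subunit, read 559, 566 and 450.3 with Noggin+RA, 464, 535 and 442 with Noggin+DMSO, 654, 659 and 674 with Tris+RA and 739, 534 and 681 with Tris+DMSO. It fell by 0.38 in the average Noggin effect (SE 0.10, 1.30-fold lower, adjusted p = 0.0336), the second Tris+DMSO array lying inside the Noggin range. A dimmer NCAPG probe set had 0.046 in the same effect. SMC2, the ATPase partner of SMC4, had -0.17 (adjusted p = 0.312).

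BUB1B, a kinase-like protein of the spindle checkpoint, read 1763, 1768 and 1505 with Noggin+RA, 1593, 1540.3 and 1582 with Noggin+DMSO, 2033, 1875 and 2026 with Tris+RA and 1800.5, 1933 and 1929 with Tris+DMSO. All 6 Noggin arrays were below all 6 Tris arrays, and BUB1B fell by 0.25 (SE 0.070, 1.19-fold lower, adjusted p = 0.0432). The call was lost under each of the 12 single omissions, at adjusted p values from 0.0529 to 0.0932, and a dimmer BUB1B probe set had an estimate of 0.24 (adjusted p = 0.278). The other checkpoint genes were not called: BUB1 had -0.12, BUB3 -0.079, MAD2L1 -0.14 and TTK, the kinase that starts the checkpoint, -0.10. By their brightest probe sets, the lowest adjusted p of these 4 was 0.237, for MAD2L1. TTK had 3 tested probe sets, all with estimates below 0 and the lowest at -0.43, none of them called.

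For NUF2 and TPX2 the call rested on a dimmer probe set. NUF2 belongs with NDC80 to the kinetochore complex that grips microtubules. Its called probe set read 609, 453 and 479 with Noggin+RA, 469, 545 and 362 with Noggin+DMSO, 817, 672 and 760.1 with Tris+RA and 622, 589 and 712 with Tris+DMSO, and fell by 0.51 (SE 0.11, 1.43-fold lower, adjusted p = 0.0211). The Noggin and Tris arrays overlapped at 1 array on each side, and the brighter NUF2 probe set gave -0.12 (adjusted p = 0.595). NDC80 had -0.062 (adjusted p = 0.645). TPX2 targets the kinase AURKA to the spindle. Its dimmest tested probe set read 548, 550.3 and 399.8 with Noggin+RA, 569.6, 528 and 527 with Noggin+DMSO, 702, 729 and 583 with Tris+RA and 756, 717 and 585 with Tris+DMSO, the 6 Noggin arrays lying below the 6 Tris arrays. It fell by 0.37 (SE 0.11, 1.30-fold lower, adjusted p = 0.0436), while the 2 brighter TPX2 probe sets gave -0.15 and -0.23 without a call.

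**Figure D3:**
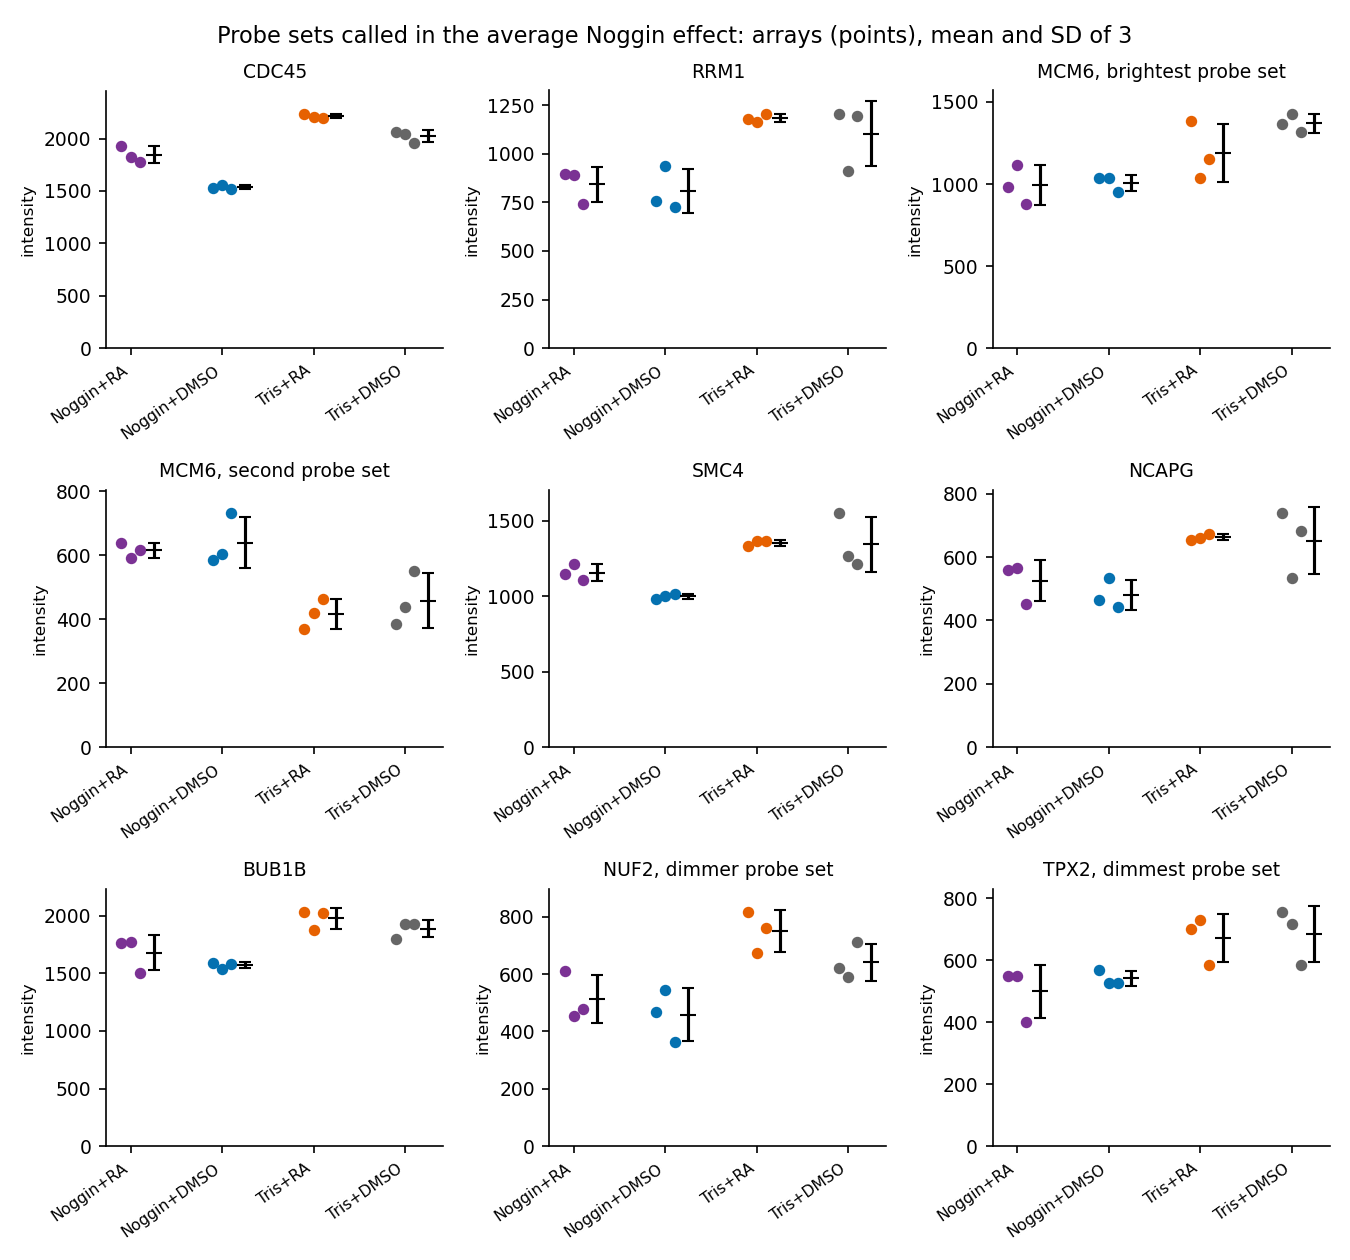
Deposited intensity (vertical axis, from 0) of the 9 member probe sets called in the average Noggin effect, in the 4 bead groups (horizontal axis); points are arrays and bars the mean and SD of 3. The 6 Noggin arrays lie below the 6 Tris arrays for CDC45, BUB1B and TPX2, above them for the second MCM6 probe set, and overlap with them in the other 5 panels.

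The remaining mitotic genes were not called, and all but NDC80 had lower estimates with Noggin+DMSO. RACGAP1, which directs the cleavage furrow, had the lowest mitotic estimate with Noggin+DMSO, -0.43 (SE 0.16, adjusted p = 0.136), with 435, 432 and 385 against 706, 423 and 609 in Tris+DMSO, where the second control array overlapped. Of the 3 tested RACGAP1 probe sets, 2 had estimates below 0 and 1 had 0.26. KIF11, the motor that pushes the spindle poles apart, read 919, 938 and 1107 with Noggin+DMSO and 1217, 1246 and 1232 with Tris+DMSO, without overlap (-0.32, adjusted p = 0.123). A dimmer KIF11 probe set had -0.071, with overlapping groups. TOP2A, which untangles sister chromosomes, read 2037, 1959 and 1827 with Noggin+DMSO and 2233, 2229 and 2310.1 with Tris+DMSO, also apart (-0.22, adjusted p = 0.193). CDC20, which triggers chromosome separation, differed by -0.29 (adjusted p = 0.156), CCNA2, cyclin A, by -0.27 (0.290) and CDK1 by -0.21 (0.308), each with no overlap of the groups. MKI67, the common marker of cycling cells, differed by only -0.10 (95% interval -0.34 to 0.14, adjusted p = 0.600), PLK1, a mitotic kinase, by -0.10 and BIRC5, survivin, by -0.042. ECT2, the activator of RhoA in the furrow, had -0.017, and NDC80 was the 1 mitotic gene with a positive estimate (0.045). The other tested NDC80 probe set had -0.18.

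The D-type cyclins tie the cycle to growth signals, and none of the 3 was called with Noggin+DMSO. CCND3 read 1419, 564 and 718 with Noggin+RA, 1009, 1607 and 1938 with Noggin+DMSO, 1089, 607 and 639.5 with Tris+RA and 638, 661 and 544 with Tris+DMSO. The 3 Noggin+DMSO arrays were above the control arrays, and 1 array each of Noggin+RA and Tris+RA was as high. CCND3 had the largest estimate of all members, 1.24 with Noggin+DMSO (2.36-fold, SE 0.33, 95% interval 0.51 to 1.97), and its adjusted p of 0.0555 did not pass. CCND1 and CCND2 had differences of 0.10 and -0.051 (adjusted p = 0.737 and 0.788), and the second CCND1 probe set had -0.059.

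Red blood cell markers moved with CCND3. Of 28 listed genes, 16 were on the array and 15 tested, 13 were above background on all 12 arrays, and RHAG was above it on none. Their summed intensity ran from 30748 to 34937 with Noggin+RA, 33083 to 40800 with Noggin+DMSO, 24362 to 34935 with Tris+RA and 17111 to 31333 with Tris+DMSO. With Noggin+DMSO against Tris+DMSO, 5 of the 15 were called higher and 0 lower. Of all genes by their brightest probe set, 3.41% were called higher and 2.26% lower. The mean log2 level of the list relative to Tris+DMSO was 0.79, 1.01 and 1.28 on the Noggin+DMSO arrays, 0.86 on Noggin+RA replicate 1 and 0.78 on Tris+RA replicate 1, and these were the 5 arrays on which CCND3 exceeded 1000. Their part in the CCND3 result was not tested.

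**Figure D4:**
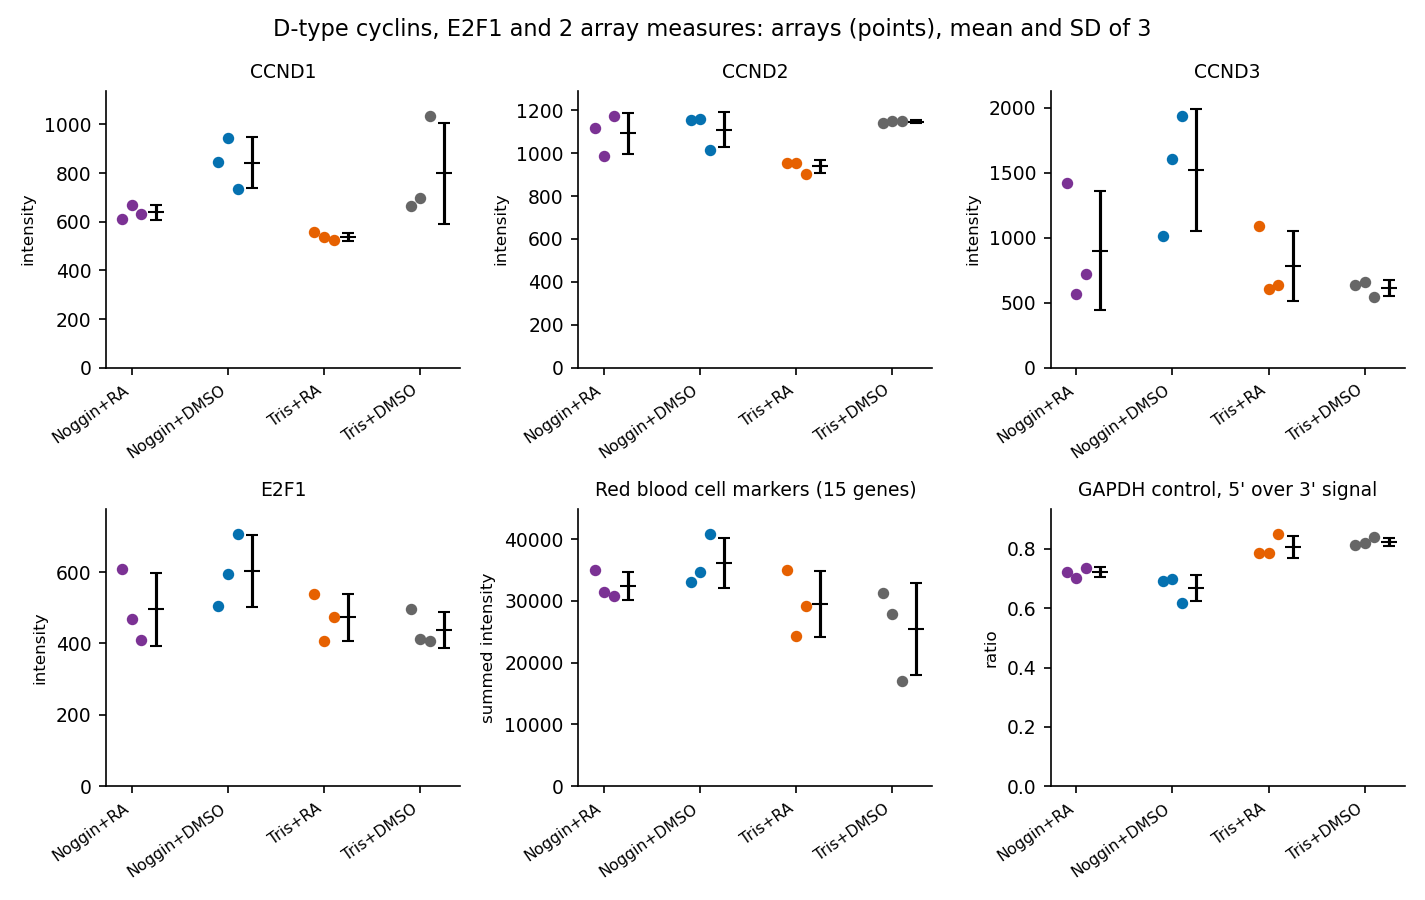
Deposited intensity of CCND1, CCND2, CCND3 and E2F1, summed intensity of 15 red blood cell markers, and GAPDH 5' over 3' ratio (vertical axes, from 0) in the 4 bead groups; points are arrays and bars the mean and SD of 3. CCND3 and the red blood cell markers both have their highest group mean with Noggin+DMSO. For both, 1 array each of Noggin+RA and Tris+RA lies above the lowest Noggin+DMSO array. The GAPDH ratio is below 0.74 on every Noggin array and above 0.78 on every Tris array.

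Markers of other cells differed between the groups too. The summed intensity of 9 white blood cell markers was 1190.2 to 1689 with Noggin+RA, 1998 to 2653 with Noggin+DMSO, 1165 to 1459 with Tris+RA and 1351 to 1750.1 with Tris+DMSO, highest with Noggin+DMSO alone. Of these markers 6 were above background on all arrays and none below it on all. The 13 surface epithelium markers summed to 5644 to 6932 with Noggin+RA, 5817 to 6086 with Noggin+DMSO, 4720 to 6039 with Tris+RA and 4600.3 to 5308 with Tris+DMSO, so both Noggin groups lay above Tris+DMSO. The 14 mesenchyme markers tested summed to 6609 to 6931 with Noggin+RA, 7256 to 7400.2 with Noggin+DMSO, 6419 to 6658 with Tris+RA and 7236 to 8215 with Tris+DMSO. These sums overlapped between Noggin+DMSO and Tris+DMSO. Of all genes by their brightest probe set, 2.26% were called lower and 3.41% higher in this comparison. Of the 14 mesenchyme markers, 4 were called lower and 1 higher, with a median log2 difference of -0.41. The list includes MSX1, MSX2, DLX1, DLX2 and DLX5, and fewer cells and less RNA per cell cannot be told apart for it. In the same comparison the endothelium markers (14 tested) had a median of 0.11 with 1 called higher. The neuron markers (10 tested) had -0.36 with 0 called. Whether these shifts, or the lower GAPDH ratio on Noggin arrays, account for any of the lower S phase and mitotic estimates was not tested. With the GAPDH ratio as a covariate no probe set at all was called in the average Noggin effect. The 9 member probe sets then had adjusted p values from 0.560 to 0.998. Their estimates ran from -0.67 (TPX2) to 0.50 (the second MCM6 probe set), with -0.34 for CDC45. The NUF2 probe set went from -0.51 to -0.0044 and RRM1 from -0.46 to -0.28, while TPX2 went the other way, from -0.37. Of all 67 member probe sets, 14 changed sign. Standard errors grew with the covariate, to 0.16 for CDC45 and 0.25 for RRM1. The S phase and mitotic medians of this effect were lower with the covariate than without it, as given at the end. Because the ratio did not overlap between Noggin and Tris arrays, the 2 cannot be told apart in this design.

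With both beads together the class medians lay nearer to 0 than with Noggin alone. With Noggin+RA against Tris+DMSO, 0 of 67 member probe sets were called, where 0.81% of all were, and at an unadjusted p below 0.05 there were 6 lower and 1 higher (14.7% of all passed it). The groups did not overlap in 11 lower and 1 higher member probe set, 17.9% of the 67 against 19.8% of all (8.79% lower). The 11 include the ECT2 probe set that passed the brightness filter on 0 Noggin arrays. The class medians were -0.11 for S phase and -0.11 for mitotic genes, with 0.038 for all probe sets. MCM6 (brightest probe set), RRM1 and PCNA had the lowest S phase estimates, -0.46, -0.38 and -0.38 (adjusted p = 0.127, 0.245 and 0.192), and in each the 3 Noggin+RA arrays were below the 3 control arrays. Of the 3 tested MCM6 probe sets, 2 had estimates below 0 and 1 had 0.43. CCNA2, NCAPG and SMC4 had the lowest mitotic estimates, -0.31, -0.30 and -0.21, with overlapping groups. The other tested NCAPG probe set had 0.19. CCNA2 read 802, 661 and 533 with Noggin+RA and 712, 871 and 888 with Tris+DMSO. At the other end, MCM10, E2F1 and GMNN had the highest S phase estimates, 0.19, 0.16 and 0.14, and NUF2 and NDC80 the highest mitotic ones, 0.14 and 0.14. The other tested probe sets of NUF2 and NDC80 had estimates below 0, -0.32 and -0.055. Without Noggin+RA replicate 3 the mitotic median was -0.030.

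With RA alone no member was called. With Tris+RA against Tris+DMSO, 0 of 67 member probe sets were called, as were 0% of all probe sets tested by limma, and at an unadjusted p below 0.05 there were 3 lower and 1 higher members (6.41% of all probe sets). The class medians were -0.071 for S phase genes and 0.019 for mitotic genes, with -0.0099 for all. CDC45 and NDC80 were higher on all 3 Tris+RA arrays than on the controls, CDC45 by 0.13 (adjusted p = 0.905) and NDC80, which read 1190.2, 1129 and 1176 against 883, 964 and 968 in Tris+DMSO, by 0.31 (adjusted p = 0.675). The other tested NDC80 probe set had -0.17. NUF2 had the highest mitotic estimate, 0.37, with 2066, 1966 and 2184 against 1104, 2061 and 1795 in Tris+DMSO, where the first control array stood far below the others. MCM5, MCM10 and MCM6 had the lowest S phase estimates, -0.25, -0.24 and -0.21, and MKI67 the lowest mitotic one, -0.094. Groups did not overlap in 2 higher and 5 lower member probe sets, 10.4%, the same share as the 10.4% of all probe sets.

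Marker levels of mesenchyme and of skeletal muscle stood apart with RA. The mesenchyme sums did not overlap between Tris+RA and Tris+DMSO and were lower with RA, with a median log2 difference of -0.27. Of these markers 0 of 14 were called, as were 0% of all probe sets. Of 15 skeletal muscle markers, 10 were tested, 4 were above background on all 12 arrays, and MYOD1, MYOG, DES and PAX7 were above it on none. They summed to 1479 to 2087 with Noggin+RA, 957 to 1246 with Noggin+DMSO, 1316 to 1437 with Tris+RA and 731 to 1074 with Tris+DMSO. Each RA group lay above both groups without RA. With Noggin+RA against Tris+DMSO, 2 of the 10 were called higher, where 0.81% of all probe sets were called. With Tris+RA against Tris+DMSO none was called, as were 0% of all probe sets, and the median log2 difference of the 10 was 0.31. Their part in the results with RA, CCND1 and CCND2 included, was not tested.

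CCND1 and CCND2 had the 2 lowest estimates of the 41 genes under RA alone. CCND1, the cyclin D most often tied to growth factor signals, read 612, 670.3 and 633 with Noggin+RA, 845, 946 and 736 with Noggin+DMSO, 556, 536 and 523 with Tris+RA and 663, 697 and 1036 with Tris+DMSO. The Tris+RA arrays were the lowest of the 12, and the Noggin+RA arrays were below the Noggin+DMSO arrays. The difference was -0.53 for Tris+RA against Tris+DMSO (SE 0.16, 95% interval -0.87 to -0.18, unadjusted p = 0.00621, adjusted p = 0.448). The average RA effect on CCND1 was -0.46 (SE 0.11, unadjusted p = 0.00161, adjusted p = 0.108), which was not called over all probe sets. A second CCND1 probe set gave -0.26 (adjusted p = 0.511). CCND2 read 956, 953 and 904 with Tris+RA and 1140.3, 1151 and 1149.7 with Tris+DMSO, apart from each other, and differed by -0.29 (SE 0.10, unadjusted p = 0.0156, adjusted p = 0.602). Over both states of Noggin its RA effect was -0.15 (adjusted p = 0.526).

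Noggin in the presence of RA can be read from Noggin+RA against Tris+RA. No member probe set was called, where 0.215% of all were, and at an unadjusted p below 0.05 there were 6 lower and 1 higher (13.7% of all passed it). The class medians were -0.040 for S phase and -0.12 for mitotic genes, with 0.038 for all probe sets. Of the mitotic genes, 19 of 21 had estimates below 0, against 43.2% of all probe sets and 46.4% of all genes by their brightest. RRM1 had the lowest estimate of the 41 genes, -0.49 (SE 0.14, adjusted p = 0.191), and CDC45 had -0.26 (adjusted p = 0.237). In both, the 3 Noggin+RA arrays were below the 3 Tris+RA arrays. The dimmer RRM1 probe set had 0.024. NCAPG and RACGAP1 had the lowest mitotic estimates, -0.33 and -0.27, again with no overlap. RACGAP1 read 485, 549.8 and 455 with Noggin+RA and 648, 555 and 596 with Tris+RA. Of its 3 tested probe sets, 2 had estimates below 0 and 1 had 0.023. Groups were apart in 9 lower and 4 higher member probe sets, 19.4% against 21.1% of all.

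RA in the presence of Noggin ran the other way for mitotic genes. With Noggin+RA against Noggin+DMSO the median was 0.12 for mitotic genes and 0.065 for S phase genes, against -0.017 for all probe sets. Of the mitotic genes, 3 of 21 were below 0, against 53.5% of all probe sets and 50.5% of all genes by their brightest. No member probe set was called, where 0.445% of all were, and at an unadjusted p below 0.05 there were 3 higher and 2 lower (9.44% of all passed it). Groups were apart in 10 higher and 1 lower member probe set, 16.4% against 17% of all, with 7.67% of all higher. CCNE2 and CDC45 were higher on every Noggin+RA array than on any Noggin+DMSO array, by 0.32 and 0.26 (adjusted p = 0.331 and 0.323). So were SMC4 (0.20), TOP2A (0.20) and RACGAP1 (0.24), the 3 highest mitotic estimates. Of the 3 tested RACGAP1 probe sets, 2 had estimates above 0 and 1 had -0.19. TOP2A read 2324, 2319.9 and 2071 with Noggin+RA and 2037, 1959 and 1827 with Noggin+DMSO. CCND3 and CCND1 had the lowest estimates, -0.80 and -0.39 (adjusted p = 0.477 and 0.466).

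Whether the effect of RA differed with and without Noggin was tested by the interaction, which takes the difference Tris+RA minus Tris+DMSO away from the difference Noggin+RA minus Noggin+DMSO. It called 0 member probe sets and 0% of all probe sets by limma, and 1 member probe set, CCND3, had an unadjusted p below 0.05 (5.97% of all probe sets did). The CCND3 term was -1.09 (SE 0.47, 95% interval -2.13 to -0.058, unadjusted p = 0.0402, adjusted p = 0.809). For CDC45 it was 0.13, and for S phase and mitotic genes the medians were 0.13 and 0.085, against -0.0018 for all. The difference between the Noggin effects with RA and with DMSO is the same term, so a weaker Noggin effect with RA is not shown for any member. The average RA effect called 0 members, against 0.82% of all, with 3 member probe sets higher and 3 lower at an unadjusted p below 0.05 (9.63% of all passed it). The 3 higher ones were CCNE2 (0.20), CDC45 (0.20, adjusted p = 0.257) and NDC80 (0.20, with -0.024 on its other tested probe set).

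Several probe sets of 1 gene often disagreed. Of the 20 genes with more than 1 tested probe set, 13 had estimates of 1 sign and 7 of mixed sign in Noggin+DMSO against Tris+DMSO, and 13 and 7 in the average Noggin effect. In Noggin+RA against Tris+DMSO, 9 had 1 sign and 11 were mixed. Among genes whose probe sets shared a sign with Noggin+DMSO, CCNE2 had -0.26 and -0.65, TOP2A -0.22 and -0.50, and TTK -0.083, -0.46 and -0.50. MCM6, BUB1B, NCAPG and RACGAP1 were among the mixed ones, NCAPG having -0.42 on its bright and 0.24 on its dim probe set.

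Other genes of the cycle were read from a list of 164, none of them members, of which 133 were tested. With Noggin+DMSO against Tris+DMSO their median was -0.18, 101 of 133 had estimates below 0 (75.9%), and 8 fell and 0 rose by their brightest probe set. Over all 10158 genes tested by their brightest probe set, 44.8% had estimates below 0, 2.26% fell and 3.41% rose. In the average Noggin effect 19 of the 133 fell and 1 rose, with a median of -0.15, where 5.32% of all genes fell and 6.95% rose. The 19 include CDKN2B, which passed the brightness filter only with the help of its Tris+RA arrays. The 1 that rose was TOPBP1, a factor of replication start and checkpoint signalling (0.31, SE 0.071, adjusted p = 0.0236), and among those that fell was RPA1, which coats single-stranded DNA (-0.46, SE 0.094, adjusted p = 0.0153). The replication genes outside the set (44 tested) had a median of -0.24 with 4 lower calls, the mitotic ones (59 tested) -0.18 with 3, and those of G1 and checkpoints (30 tested) -0.062 with 1, in Noggin+DMSO against Tris+DMSO.

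CHEK2, a DNA damage checkpoint kinase, had the lowest adjusted p of these genes in Noggin+DMSO against Tris+DMSO, with 169.8, 138 and 214 in Noggin+DMSO against 332, 265 and 325 in Tris+DMSO. It fell by 0.78 (SE 0.16, 1.72-fold lower, adjusted p = 0.0200), the groups being apart. ORC1, the largest subunit of the complex that marks replication origins, read 252, 259 and 259 against 445, 368 and 436 in Tris+DMSO and fell by 0.66 (SE 0.13, 1.58-fold lower, adjusted p = 0.0209). KIF20A, a motor of cell division, read 637, 601 and 566 against 797, 859 and 893 in Tris+DMSO and fell by 0.49 (SE 0.10, 1.40-fold lower, adjusted p = 0.0210). CENPO, a kinetochore protein, fell by 0.68 on a probe set that was not its brightest (SE 0.14, adjusted p = 0.0248), and its brightest was not called. CDKN1B, the inhibitor p27 of cyclin-dependent kinases, rose by 0.82 on a probe set that was not its brightest (SE 0.19, 1.76-fold, adjusted p = 0.0348). This probe set read 471, 521 and 461 in Noggin+DMSO against 318, 243 and 249 in Tris+DMSO. The brightest CDKN1B probe set was not called. CDKN2B, an inhibitor of the cyclin D kinases, read 9.07, 15.9 and 15.3 with Noggin+RA, 37.9, 23.3 and 29.5 with Noggin+DMSO, 66.5, 49.9 and 70.8 with Tris+RA and 36.0, 28.6 and 19.6 with Tris+DMSO. Tris+RA was the group that stood out, and CDKN2B passed the brightness filter only through its 3 Tris+RA arrays and 1 other, so no test of it is given.

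The scaling of the arrays sets how many members are called, while the distance of the classes from the other probe sets kept its sign for Noggin+DMSO under the scalings tried. Subtracting the median of all chicken probe sets from each array moved the median of all probe sets tested in Noggin+DMSO against Tris+DMSO to -0.11, against 0.063 as deposited. The S phase median was then -0.40 and the mitotic median -0.36, still -0.29 and -0.26 relative to all probe sets, as in the deposited scaling, since this subtraction shifts every probe set alike. It called 13 members, all lower and ECT2 among them, where it called 8.61% of all. Of all calls 18.7% were higher, against 59.9% as deposited and 44.4% under quantile normalization. Quantile normalization put the classes at -0.20 and -0.14, which is -0.20 and -0.13 relative to all. It called CCND3 higher and 2 members lower, where it called 5.22% of all. The 2 were CDC45 and an ECT2 probe set that passed the brightness filter on 3 Tris arrays and 0 Noggin arrays. CDC45 was called in Noggin+DMSO against Tris+DMSO under all 3 scalings. The S phase median of Noggin+RA against Tris+RA depended on scaling, at -0.078 relative to all probe sets as deposited and 0.00074 under quantile normalization.

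**Figure D5:**
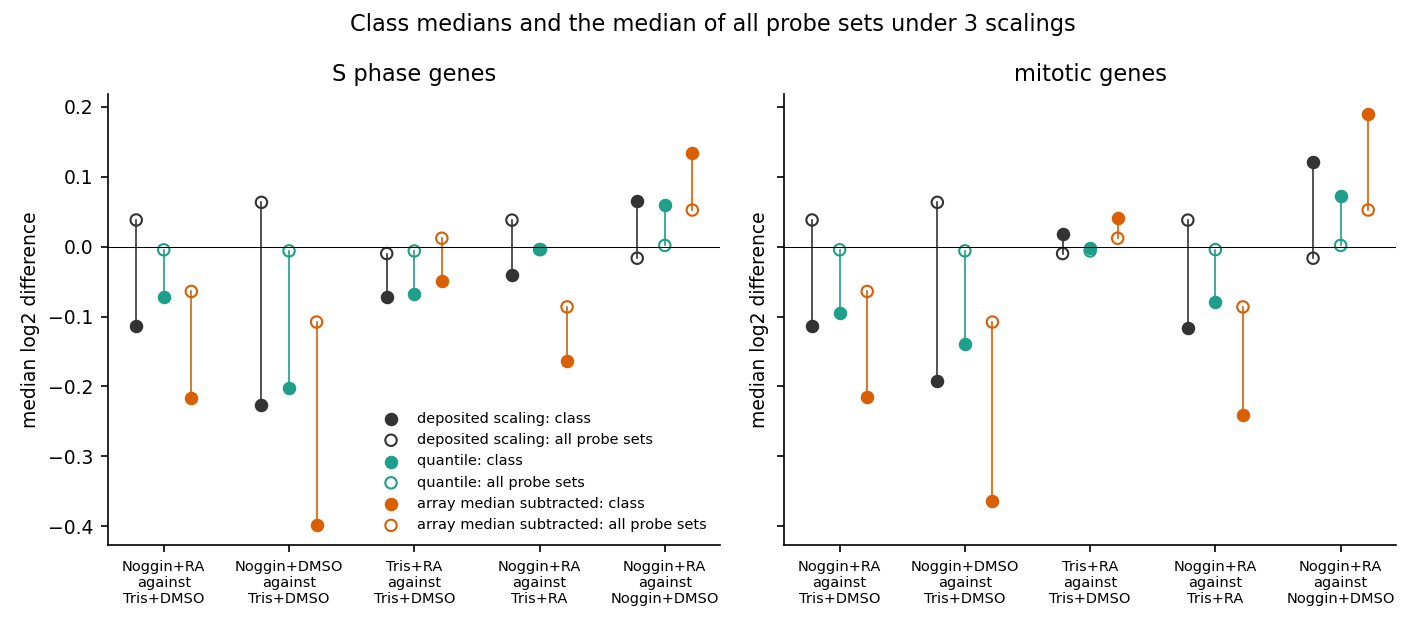
Median log2 difference (vertical axis) of the S phase genes (left, n = 17) and mitotic genes (right, n = 21), filled points, and of all probe sets tested, open points, in 5 comparisons under 3 scalings of the arrays. In Noggin+DMSO against Tris+DMSO the filled points lie below the open ones under each scaling, by 0.20 to 0.29 for S phase genes and 0.13 to 0.26 for mitotic genes.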

How the data were processed

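RNA of 12 pools was hybridised to a 1-colour Affymetrix chicken array, 1 array per pool, after 2-cycle biotin labelling from 500 ng of total RNA, per the labels' protocols. The deposited intensity values are linear, none below 0, and each array had a mean of 150.03 once 2% of probe sets were trimmed at either end. The authors had thus scaled the arrays to a common level. Which software summarised the probes is not given in the sources used here, nor is any background step. Such scaling moves the other probe sets when many shift 1 way, and labelling from the 3' end makes signals depend on how complete the RNA was.

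Of 38535 probe sets, 37693 were chicken, and the 21354 above the median of all probe sets of their array on at least 3 of 12 arrays were tested. A single symbol stood on 27166 chicken probe sets, more than 1 on 177, and none on 10350. All 76 member probe sets matched a RefSeq gene identifier and 0 symbols changed. With R 4.3.3 and limma 3.58.1 (lmFit, eBayes), 1 mean per group was fitted to log2(value + 16) over all 12 arrays. Tests were two-sided, with Benjamini-Hochberg adjustment over all probe sets tested, in 8 comparisons. The average effects and the interaction combine the group means, and comparisons share arrays. Intervals are 95% and come from the moderated spread. No 2 arrays were identical, and within groups r was 0.976 to 0.982. The number of arrays limits the precision.

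The members, the gene lists and the tests were chosen with earlier results of these data known. Any member could be named, with array values for called ones and for the 3 highest and lowest estimates of a class, and of the other cell cycle genes those called with the smallest adjusted p, at most 5 a direction. Not every gene or array value that the rule allows is given. The script was tested on simulated data. The alternatives tried were array medians subtracted, quantile normalization, 1 or 64 added before log2, no filter or at least 6 arrays, only the groups compared, a replicate block, the GAPDH ratio as covariate, array weights, each array left out, and all probe sets of a gene averaged. Sequences and genome positions were not used here.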

Additional observations from a re-analysis of the deposited data

How the results depend on the processing

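Over all alternatives no called probe set changed sign. With the GAPDH ratio as covariate, 14 of all 67 member probe sets did so in the average Noggin effect, none of them called. In Noggin+DMSO against Tris+DMSO the call count was 1, where 4.95% of all probe sets were called. It became 13 with array medians subtracted (8.61% of all) and 3 with quantile normalization (5.22%). With 64 added before log2 it was 5 (7.12%), and with the filter at 6 arrays it was 3 (6.06%). With the GAPDH ratio as covariate it was 0 (0%). Fitted on only the groups compared, the 1 call was CCND3 in place of CDC45, where 2.49% of all were called. In the average Noggin effect the count of 9 (11.2% of all called) became 27 with array medians subtracted (16.5%). Without a filter it was 5 of 76 member probe sets (4.52% of all). With the GAPDH ratio it was 0, and 0 probe sets of all 21354 were called. Leaving out each array in turn gave 0 to 3 calls in Noggin+DMSO against Tris+DMSO, where 1.21% to 5.15% of all were called. In the average Noggin effect it gave 3 to 8 calls, where 5.05% to 10.9% of all were called. The 6 other comparisons had 0 member calls under each alternative that could be run.

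With array medians subtracted, the S phase and mitotic medians were -0.22 and -0.22 for Noggin+RA against Tris+DMSO, -0.40 and -0.36 for Noggin+DMSO against Tris+DMSO, -0.16 and -0.24 for Noggin+RA against Tris+RA, and -0.26 and -0.28 for the average Noggin effect. With the GAPDH ratio they were -0.13 and -0.22 for Noggin+RA against Tris+RA, -0.22 and -0.26 for the average Noggin effect, and -0.30 for mitotic genes in Noggin+DMSO against Tris+DMSO. With single arrays left out, the mitotic median ran from -0.14 to -0.030 for Noggin+RA against Tris+DMSO, -0.0095 to 0.091 for Tris+RA against Tris+DMSO, -0.16 to -0.042 for Noggin+RA against Tris+RA and 0.029 to 0.17 for the interaction. The S phase median ran from 0.019 to 0.15 for Noggin+RA against Noggin+DMSO. Apart from the shift that subtraction of array medians builds in, the cause of these moves was not tested.

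The replicate numbers did not pair the pools: deviations from the group means correlated at -0.098 to 0.069 between arrays of the same number, and 1 of 12 arrays matched its own number best. With the replicate number as a block there were 0 member calls in Noggin+DMSO against Tris+DMSO (3.59% of all called). In the average Noggin effect there were 8 (9.12% of all called). Dim signal limits MCM10, ECT2, CCNE1, CDC25A and the second probe sets of several genes, where background forms much of the value.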
